A study of Mus musculus with 8 samples.

Results

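The genes described here were the IL-6 family cytokines *Il6*, *Lif*, *Osm*, *Il11* and *Csf3*, the receptor subunits *Il6ra*, *Il6st* and *Osmr*, the transcription factor *Stat3* and its feedback inhibitor *Socs3*. They were picked by gene name, and all 10 were found among the 54532 genes of the count table. RNA was sequenced from membrane GFP-positive (mG+) cells sorted from 8-month-old female mice, in 8 libraries that formed 4 WT and KO pairs. The pairs were subcutaneous (inguinal) adipose tissue on high-fat diet (SAT HFD), SAT on chow, visceral (gonadal) adipose tissue on chow (VAT), and gastrocnemius muscle on chow. KO mice carried *Tie2e-cre*, the floxed telomerase allele *TERTfl/fl* and the *mTmG* reporter, whereas WT littermates carried *Tie2e-cre* and *mTmG* with *TERT+/+*. HFD was fed from month 1 to month 8 of age. *Cre* was thus present in every mouse, under a *Tie2* promoter that is known to act in endothelial cells (EC) and also in the blood cell lineage. Each genotype had 1 library per tissue and diet, and whether that library held 1 mouse or a pool is not stated in the sources used here.

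Cytokines of this family bind a ligand-specific receptor subunit and then recruit the shared signalling subunit encoded by *Il6st*. Janus kinases bound to the receptor phosphorylate STAT3, which enters the nucleus and induces its own brake, *Socs3*, along with acute-phase and survival genes. IL-6 and LIF are released by activated EC, stromal cells and macrophages, oncostatin M comes mainly from neutrophils, macrophages and T cells, and IL-6 is also a component of the senescence-associated secretory phenotype. The *Csf3* product, granulocyte colony-stimulating factor, drives neutrophil production through its own homodimeric receptor and is grouped with the family by its fold.

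*Il6* (ENSMUSG00000025746) lies at chr5:30013114-30019981 on the plus strand of GRCm38. The other ligand genes are *Lif* (ENSMUSG00000034394, chr11:4257557-4272514), *Osm* (ENSMUSG00000058755, chr11:4236420-4241026), *Il11* (ENSMUSG00000004371, chr7:4772373-4782857, minus strand) and *Csf3* (ENSMUSG00000038067, chr11:98701263-98703629). *Osm* and *Lif* are neighbours on the plus strand with 16530 bases between them, and 5 of the 10 genes are on chromosome 11. The receptor genes are *Il6ra* (ENSMUSG00000027947, chr3:89864059-89913196, minus strand), *Il6st* (ENSMUSG00000021756, chr13:112464070-112510086, plus strand) and *Osmr* (ENSMUSG00000022146, chr15:6813577-6874969, minus strand). *Stat3* (ENSMUSG00000004040, chr11:100885098-100939540) and *Socs3* (ENSMUSG00000053113, chr11:117966079-117970047) are on the minus strand.

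The 250 bases before the RefSeq start of *Il6* (chr5:30012864-30013113, GRCm38.p6, plus strand) and of *Lif* (chr11:4257318-4257567, plus strand) are shown because these ligand genes had their highest level in the same tissue. Capitals mark letters that match a binding motif of AP-1 (TGANTCA), C/EBP (TTGCNNAA) or NF-kB (GGG and TTTCC with any 2 bases between them), searched on both strands.
Il6: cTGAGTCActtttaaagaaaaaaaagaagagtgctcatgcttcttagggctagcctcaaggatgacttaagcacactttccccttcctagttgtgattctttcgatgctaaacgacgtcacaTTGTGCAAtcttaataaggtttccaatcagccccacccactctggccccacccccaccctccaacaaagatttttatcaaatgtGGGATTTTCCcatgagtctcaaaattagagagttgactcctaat
Lif: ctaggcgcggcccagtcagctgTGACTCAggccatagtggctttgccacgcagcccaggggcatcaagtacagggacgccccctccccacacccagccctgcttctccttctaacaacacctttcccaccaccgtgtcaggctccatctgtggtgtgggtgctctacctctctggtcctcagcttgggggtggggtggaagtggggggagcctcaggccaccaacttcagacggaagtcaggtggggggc
Counted from the first base of the start as 0, the *Il6* matches lie at bases -249 to -243 (AP-1), -128 to -121 (C/EBP) and -44 to -35 (NF-kB), and the *Lif* match lies at -228 to -222. RefSeq windows of 300 bases (250 before to 50 after the start) were held for 8 of the 10 genes, with *Osm* and *Csf3* not among them. AP-1 letters occurred in windows of 4 of these genes (*Il6*, *Lif*, *Osmr* and *Il11*), against 7.81% of all 32851 windows. A STAT motif (TTCNNNGAA, in 8.3% of windows) occurred in that of *Socs3* alone, as TTCTTAGAA at -154 to -146. The C/EBP and NF-kB motifs, in 10.8% and 1.63% of all windows, occurred among these genes only in that of *Il6*.

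Library totals ran from 6214269 to 18855772 counts. Genes with a count numbered 16076 in the WT and 16034 in the KO library of SAT HFD, and 19802 to 24688 in the other libraries. The SAT HFD KO library had 11117656 counts, more than the VAT WT library, which had 9389345 counts and 22854 genes with a count. *Tert*, the deleted gene, had 114 counts in the WT and 0 in the KO library of SAT HFD, 70 and 11 in SAT chow, and 24 and 7 in muscle. In VAT it had 3 counts in the WT and 9 in the KO library, which goes against the label within counting error, so this library is called the VAT library labelled KO. All 12 endothelial markers were detected in every library, but their summed level differed by tissue. It was 282 to 697 counts per 1000000 counts (CPM) in the SAT libraries and 1680 to 2350 CPM in VAT and muscle. Markers of other cells were also present. Summed macrophage markers (10 genes) stood at 9620 and 9490 CPM in the VAT libraries and at 214 to 931 CPM in the others. Neutrophil markers (10 genes) stood at 27400 and 31300 CPM in muscle and at 71.3 to 801 CPM in the others, with *Ly6g* at 0 counts in both SAT HFD libraries. T cell and B cell markers reached 3570 and 2060 CPM in the SAT chow WT library, and satellite cell markers did not exceed 51.6 CPM. The SAT chow WT library stood apart in nuclear RNA, with *Malat1* and *Neat1* summing to 374 CPM against 2370 to 6390 CPM in the other 7 libraries. Fewer cells of a type and less RNA per cell cannot be told apart in such libraries.

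**Figure D1:**
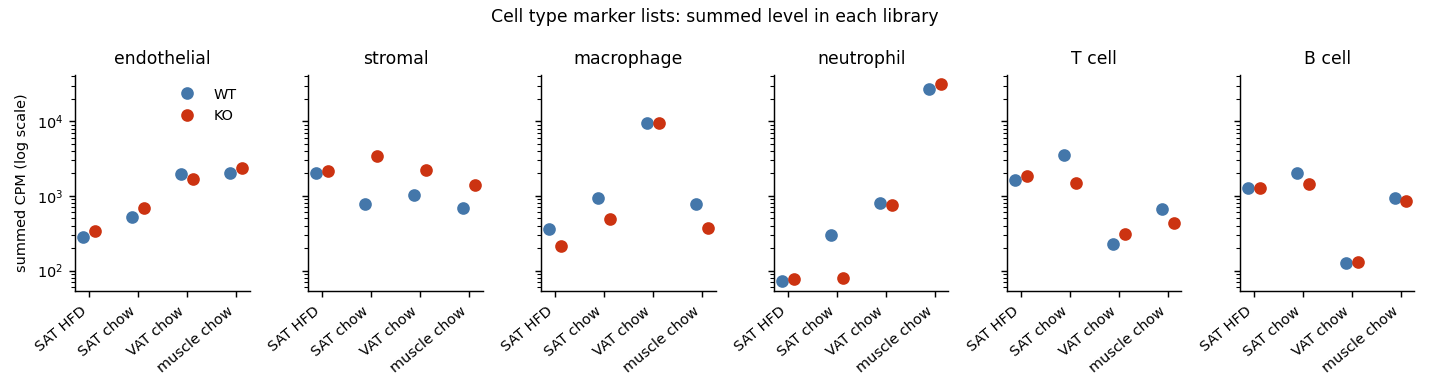
Summed CPM (log axis) of 6 cell type marker lists in each library, WT in blue and KO in red, by tissue and diet. Macrophage markers were highest in VAT, neutrophil markers in muscle, and T and B cell markers in SAT.

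Most of the family was highest in VAT. Of the 10 genes, 8 had their highest mean CPM in the VAT pair, and for 6 of them both VAT libraries lay above all other libraries. The same counts were not taken over all genes, so they describe only the order of levels. *Osm* was highest in muscle and *Csf3* in SAT HFD. These levels are CPM scaled by the trimmed mean of M-values (TMM). Differences were tested with edgeR over the 16971 genes that averaged 10 or more counts, which included 9 of the 10 genes, with WT and KO libraries of a tissue as its only 2 libraries and genotype as a covariate. Any difference between tissues and diets was called at an adjusted p under 0.05 for 2 of the 9, *Osm* (adjusted p = 0.00176) and *Lif* (adjusted p = 0.0263), beside 7.93% of all genes tested. The *Lif* call was lost without the VAT WT library (adjusted p = 0.335), the VAT library labelled KO (0.125), the muscle WT library (0.0682) or the muscle KO library (0.0674). The *Osm* call was lost only when the whole muscle pair was left out (0.103), among 18 alternatives with a range of 5.11e-36 to 0.103, against 1.14e-05 to 0.897 for *Lif*. Leaving out the SAT chow WT or KO library raised the number called among the 9, and also the number called among all genes. Those fits leave 1 library in that group.

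**Figure D2:**
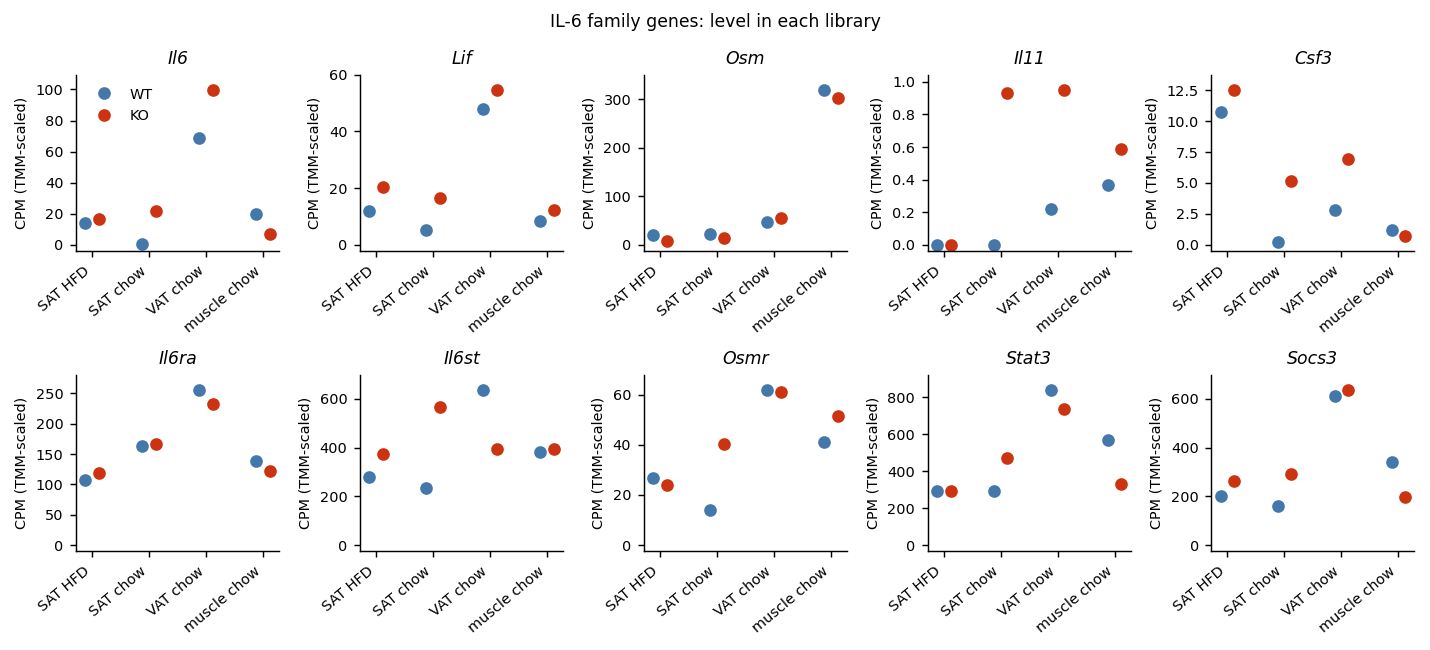
Level of each gene (TMM-scaled CPM, linear axes that start at 0) in the WT (blue) and KO (red) library of each tissue and diet. VAT held the highest libraries for *Il6*, *Lif*, *Il6ra*, *Osmr*, *Stat3* and *Socs3*, whereas *Osm* stood at 318.9 and 303.0 CPM in muscle.

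*Lif*, which maintains stem cell states and mediates the acute-phase response, was expressed at 47.9 CPM in the WT and 54.6 CPM in the VAT library labelled KO. It stood at 12 and 20.3 CPM in SAT HFD, 5.26 and 16.7 CPM in SAT chow, and 8.35 and 12.5 CPM in muscle (WT first throughout). The VAT libraries thus lay above all others, while the other 3 pairs overlapped each other. *Lif* was higher in VAT than in SAT chow by 2.41 on the log2 scale (SE 0.475, adjusted p = 0.0313), a fold of 5.30. In this contrast 5% of all genes were called, and *Lif* was 1 of the 9 family genes. Without the VAT WT library the adjusted p was 0.225 and without the VAT library labelled KO 0.0939, and without the genotype covariate (no replicate block) it was 0.0539, within a range of 6.33e-05 to 0.225 over 16 alternatives, 13 of which kept the call.

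*Il6* had its highest values in VAT too, 68.7 and 99.7 CPM. The other libraries held 13.7 and 16.4 CPM in SAT HFD, 0.557 and 21.9 CPM in SAT chow, and 20.1 and 6.71 CPM in muscle. Both VAT libraries were above all others by at least 3-fold, and the remaining pairs overlapped. The VAT over SAT chow difference was 3.20 on the log2 scale with an SE of 1.26 and did not pass (adjusted p = 0.201). As a ratio, the 2 SAT chow libraries themselves differed by more than those of any other pair.

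*Osm*, which acts on stromal cells and EC, was highest in muscle instead. It stood at 318.9 and 303.0 CPM in muscle, 47.3 and 54.8 CPM in VAT, 22.0 and 14.6 CPM in SAT chow, and 19.2 and 8.34 CPM in SAT HFD. The muscle libraries lay above the VAT libraries and these above all SAT libraries, while the SAT pairs overlapped. *Osm* was higher in muscle than in SAT chow by 4.12 (log2, SE 0.425, adjusted p = 0.00958, a fold of 17.4), in a contrast in which 1.27% of all genes were called, and it kept the call under all 16 alternatives. It was higher in muscle than in VAT by 2.59 (log2, SE 0.396, adjusted p = 0.0204, a fold of 6.01), where 2.02% of genes were called. That second call was lost without the VAT WT library (adjusted p = 0.223), the VAT library labelled KO (0.115), the muscle WT library (0.0682) or the muscle KO library (0.196), over a range of 3.3e-08 to 0.223. In VAT over SAT chow the difference was 1.54 with an adjusted p of 0.0657. The 10 neutrophil markers summed to 27400 and 31300 CPM in muscle and 801 and 750 CPM in VAT. In SAT chow they summed to 303 and 79.9 CPM, and in SAT HFD to 71.3 and 77.5 CPM. Both *Osm* and this sum were lower in the KO library of SAT chow, whereas in SAT HFD only *Osm* was. The part of these markers in the *Osm* difference was not tested.

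*Csf3* was low in most libraries, and its order of tissues differed from that of the other ligands. It stood at 10.7 and 12.5 CPM in SAT HFD, 0.248 and 5.15 CPM in SAT chow, 2.78 and 6.94 CPM in VAT, and 1.17 and 0.737 CPM in muscle. SAT HFD lay above the rest, and VAT overlapped SAT chow. The SAT HFD over SAT chow difference was 2.63 on the log2 scale (SE 1.30, adjusted p = 0.589). *Il11*, a cytokine linked to fibrosis, was near the limit of detection, at 0 and 0 counts in SAT HFD, 0 and 15 in SAT chow, 2 and 13 in VAT, and 6 and 8 in muscle, and was too low to be tested. A count of 0 allows a level of up to 0.434 CPM in the SAT HFD WT library, 0.232 CPM in the SAT HFD KO library and 0.186 CPM in the SAT chow WT library. Such limits cover counting error only, and the SAT HFD libraries had the fewest genes with a count.

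*Il6ra*, the IL-6-binding receptor subunit, stood at 255.0 and 232.7 CPM in VAT, 163.8 and 167.3 CPM in SAT chow, 139.1 and 122.3 CPM in muscle, and 107.7 and 119.2 CPM in SAT HFD. The 4 pairs did not overlap in this order, yet no contrast passed, the largest being muscle over VAT at -0.90 (log2, SE 0.283, adjusted p = 0.194). *Il6st* overlapped between VAT (634.3 and 393.7 CPM), SAT chow (232.2 and 565.9 CPM) and muscle (380.3 and 394.1 CPM). SAT HFD had the lowest mean, at 281.1 and 372.6 CPM, with both libraries between those of SAT chow. For *Il6st* the WT and KO libraries of SAT chow and of VAT differed by more than the means of any pair of tissues. *Osmr*, the oncostatin M receptor subunit, stood at 61.7 and 61.1 CPM in VAT, 41.2 and 51.5 CPM in muscle, 14.1 and 40.4 CPM in SAT chow, and 26.6 and 24.0 CPM in SAT HFD. Its VAT libraries agreed closely and lay above muscle, and the SAT pairs overlapped. The *Osmr* difference between VAT and SAT chow was 1.27 (log2, SE 0.455, adjusted p = 0.164). Ligand and receptor were thus highest in different tissues for oncostatin M, with *Osm* at its peak in muscle and *Osmr* in VAT.

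*Stat3* and *Socs3* followed each other across the libraries. *Stat3* stood at 837.5 and 737.8 CPM in VAT, 570.1 and 332.0 CPM in muscle, 290.2 and 473.7 CPM in SAT chow, and 294.1 and 294.3 CPM in SAT HFD. *Socs3* stood at 612.5 and 635.4 CPM in VAT, 341.9 and 197.1 CPM in muscle, 159.4 and 292.8 CPM in SAT chow, and 201.0 and 262.4 CPM in SAT HFD. For both genes VAT lay above all other libraries, and muscle overlapped SAT chow. Their log2 levels had a Pearson r of 0.942 over the 8 libraries, which share tissues, diets and cell makeup. Neither passed in VAT over SAT chow, where *Socs3* was at 1.48 (log2, SE 0.435, adjusted p = 0.103) and *Stat3* at 1.03 (log2, SE 0.414, adjusted p = 0.208). The median of the 9 family genes in that contrast was 1.27, with 9 of 9 above 0. Over all genes the median was -0.13, with 7730 of 16971 above 0. Macrophage markers, at 9620 and 9490 CPM, were also highest in VAT, as was the sum of the 12 immediate early genes. Outside VAT the macrophage markers summed to 931 and 487 CPM in SAT chow, 784 and 376 CPM in muscle, and 355 and 214 CPM in SAT HFD. Endothelial markers stood at 1990 and 1680 CPM in VAT, 2060 and 2350 CPM in muscle, and 524 and 697 CPM in SAT chow. The part of these values in the family's levels was not tested. Immediate early genes summed to 13100 and 14200 CPM in VAT and to 4850 to 9100 CPM elsewhere.

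**Figure D3:**
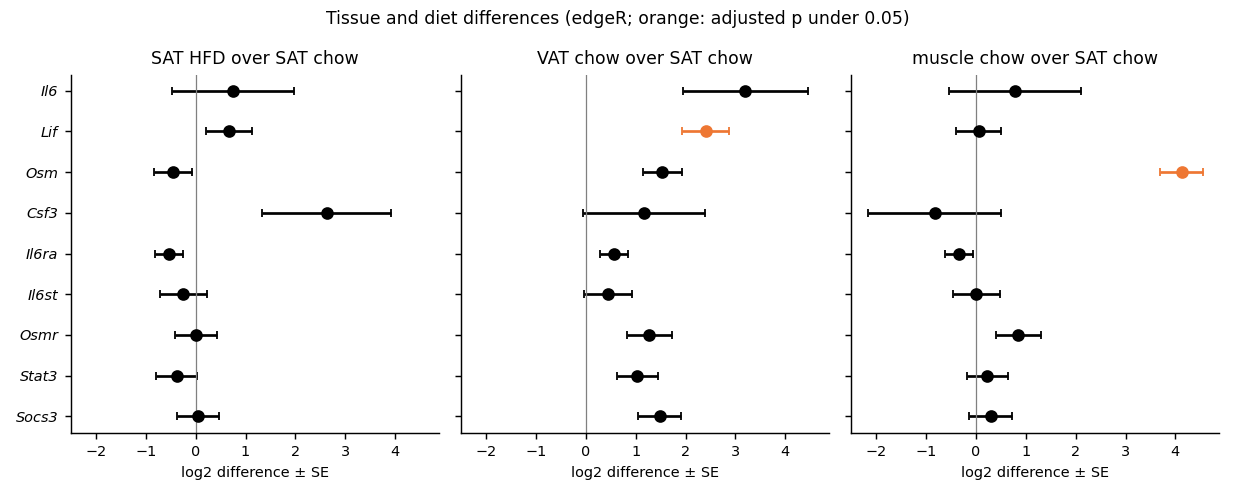
Log2 difference of each of 9 genes (points) with its SE (bars) in SAT HFD, VAT and muscle, each over SAT chow, from edgeR with genotype as covariate. Orange marks an adjusted p under 0.05, reached by *Lif* in VAT and *Osm* in muscle.

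High-fat diet against chow in SAT gave no call for the family. The median of the 9 genes was 0.00 and 5 were above 0. Over all genes the median was -0.32, with 5333 of 16971 above 0. edgeR called 0 of the 9 and none had an unadjusted p under 0.05, and the share called among all genes was 0%. DESeq2 called 0 of the 9 and 246 of all genes.

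Levels can be ranked between genes only per length, here CPM per kilobase of the length given in the count table. *Socs3* led the family on this scale in all 6 fat libraries, from 55.1 in SAT chow WT to 219.8 in the VAT library labelled KO. In muscle *Osm* led instead, at 140.4 in the WT and 133.3 in the KO library. *Il11* was last in every library. *Il6* stood at 28.3 in VAT WT beside 29.5 for its receptor subunit *Il6ra*, and at 41.1 beside 26.9 in the VAT library labelled KO. In SAT chow WT it stood at 0.229 beside 19.0 for *Il6ra*.

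Between genotypes, most of the counted differences were in SAT on chow, where 5 of the 9 genes were at least 2-fold higher in the KO library. By less than 2-fold, *Stat3* and *Socs3* were higher and *Osm* was lower there, and *Il6ra* was level. With 1 library per genotype in a pair there is no replicate check, so a gene is counted here when it differed by at least 2-fold with a 95% counting interval that excluded no change. By that rule 5 were higher and 0 lower in SAT chow KO, beside 25.8% of all genes higher and 18.8% lower. In SAT HFD 0 were higher and 1 lower, beside 18.0% and 16.3%. In VAT 1 was higher and 0 lower, beside 7.48% and 6.48%, and in muscle 0 were higher and 1 lower, beside 8.34% and 5.66%. The median log2 KO over WT of the family was 1.29 in SAT chow, 0.23 in SAT HFD, 0.05 in VAT and -0.19 in muscle, beside medians of all genes between 0.00 and 0.06.

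**Figure D4:**
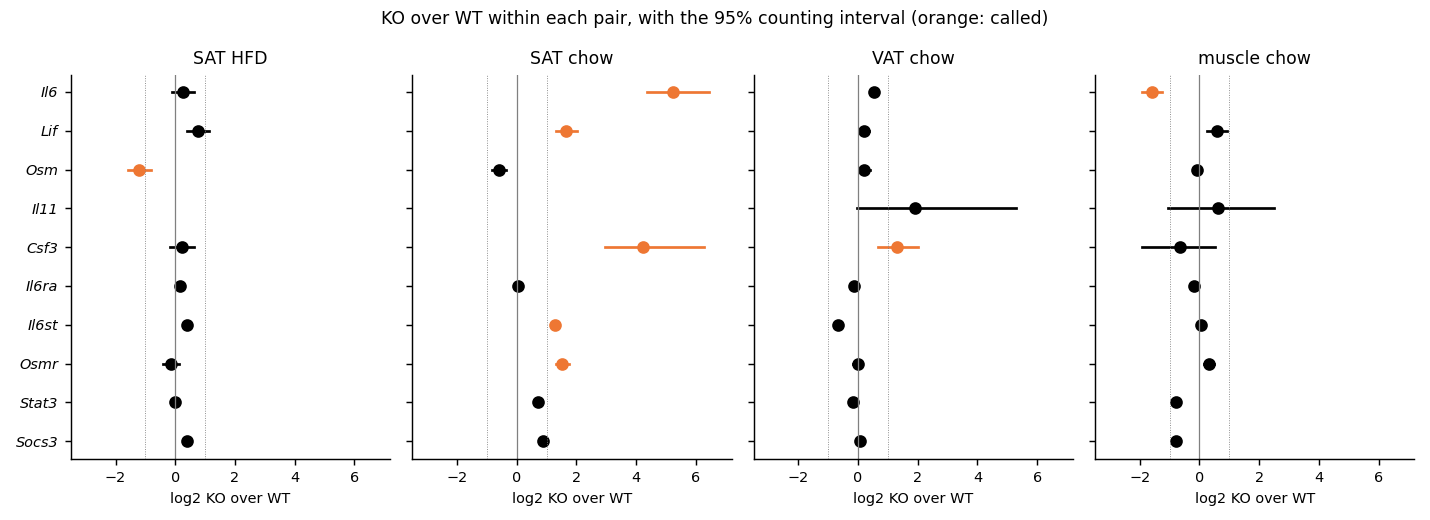
Log2 KO over WT of each gene (points) within each pair with the 95% counting interval (bars), dotted lines at 2-fold. Orange marks the counted genes, 5 of them higher in SAT chow, and *Il11* is left out where a library had 0 counts.

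In SAT chow *Il6* rested on 9 counts in the WT and 353 in the KO library, a log2 KO over WT of 5.22 (interval 4.36 to 6.44, a fold of 37.3). *Csf3* went from 4 to 83 counts (log2 4.22, interval 2.97 to 6.29). *Lif* went from 85 to 269 counts (log2 1.66, interval 1.31 to 2.03), and *Il11* from 0 to 15 counts, at least 5.01-fold higher against 3 counts in the WT library. All 4 of these ligands were thus higher in the KO library, and *Osm* was not, at 355 and 235 counts (log2 -0.59). Of the receptors, *Osmr* (log2 1.52) and *Il6st* (log2 1.29) were more than 2-fold higher, while *Il6ra* was level at 0.03 with an interval of -0.05 to 0.11. *Stat3* (log2 0.71) and *Socs3* (log2 0.88) were higher by less than 2-fold. The SAT chow WT library is the one low in *Malat1* and *Neat1*, by 374 against 6390 CPM in its KO partner. Stromal markers (8 genes) summed to 777 CPM in this WT library and 3390 CPM in the KO library, immediate early genes to 4850 and 9100 CPM, and T cell markers to 3570 and 1490 CPM. Neutrophil markers summed to 303 and 79.9 CPM and macrophage markers to 931 and 487 CPM in the same pair. The part of these differences in the family's values was not tested.

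In SAT HFD the genotypes differed less in *Il6* and *Csf3*. *Il6* had 95 and 212 counts (log2 0.25, interval -0.10 to 0.62) and *Csf3* 74 and 162 (log2 0.22, interval -0.18 to 0.64). *Lif* was higher in KO by 0.76 (log2, interval 0.40 to 1.13). *Osm* was lower in KO, with 133 and 108 counts in libraries of unequal depth (log2 -1.20, interval -1.59 to -0.83). *Il6st* and *Socs3* were higher by 0.41 and 0.38, and *Stat3* was level at 0.00 with an interval of -0.08 to 0.08. Stromal markers were nearly equal in this pair, at 2060 and 2130 CPM.

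In VAT the library labelled KO had more *Csf3*, with 25 and 95 counts (log2 1.31, interval 0.67 to 2.02), and less *Il6st* (log2 -0.69, interval -0.74 to -0.63). *Il6* was at 0.54, *Lif* at 0.19 and *Osm* at 0.21, all with intervals above 0 and under 2-fold. *Il11*, with 2 and 13 counts, had a ratio of 3.74 and an interval on the log2 scale of -0.05 to 5.29. *Stat3* (-0.18), *Socs3* (0.05), *Osmr* (-0.02) and *Il6ra* (-0.13) stayed within 0.2 of no change. Stromal markers summed to 1030 CPM in the WT library and 2240 CPM in the VAT library labelled KO, and their part was not tested.

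In muscle *Il6* was lower in KO, at 327 and 91 counts (log2 -1.58, interval -1.93 to -1.24). *Stat3* (-0.78) and *Socs3* (-0.79) were lower too, with intervals below 0 and a difference under 2-fold. *Lif* (0.58) and *Osmr* (0.32) were higher, and *Osm*, the most abundant ligand there, was near level at -0.07 with 5196 and 4111 counts. *Il6*, *Stat3* and *Socs3* were thus lower together in muscle KO and higher together in SAT chow KO. Summed macrophage markers were 784 and 376 CPM in the muscle pair and satellite cell markers 51.6 and 13.5 CPM, while stromal markers were higher in KO, at 696 and 1380 CPM, and their part was not tested.

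*Lif* was the only gene of the 9 that was higher in KO in all 4 pairs, and none was lower in all 4. The share of all genes that went one way in all 4 pairs was not counted, so this does not set *Lif* apart. Taking the 4 pairs as replicates of the genotype with tissue and diet as a block, edgeR called 0 of the 9 at an adjusted p under 0.05, beside 0.00589% of all genes (1 of 16971), and DESeq2 called 0 of the 9 and 19 of all genes. By the edgeR fit *Lif* alone had an unadjusted p under 0.05, with a log2 difference of 0.79 (SE 0.325) and an adjusted p of 0.9996. *Csf3* (log2 1.14, SE 0.940) and *Il6* (log2 0.72, SE 0.937) had SEs close to the size of their differences. Without the SAT chow pair the *Il6* value was -0.23, that of *Il6st* -0.08 and that of *Socs3* -0.12, and without the muscle pair that of *Stat3* was 0.17.

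The other ligands and receptors of the family came from a list of 15 genes. Of the 8 ligands 4 had enough counts to be tested, and none was called in any contrast. *Clcf1*, a ligand of the ciliary neurotrophic factor receptor, stood at 64.6 and 157 CPM in SAT chow WT and KO (log2 1.28) and between 63.4 and 129.8 CPM elsewhere. Of the 7 receptors, 4 differed between tissues and diets, beside 7.93% of all genes. *Lifr*, the partner of *Il6st* for LIF, was higher in VAT than in SAT chow by 3.09 (log2, SE 0.441, adjusted p = 0.0118), the same contrast in which its ligand was called. It stood at 289 and 266 CPM in VAT against 19.1 and 51.1 CPM in SAT chow. *Il27ra*, a receptor of T and natural killer cells, was lower in VAT (-2.17, adjusted p = 0.0175) and in muscle (-2.01, adjusted p = 0.0453) than in SAT chow. T cell markers summed to 1490 to 3570 CPM in the SAT libraries and to 229 to 665 CPM in VAT and muscle. *Csf3r*, the receptor for the *Csf3* product, and *Lepr*, the leptin receptor, had adjusted p values of 0.0187 and 0.0472 for any difference, and *Csf3r* stood at 356 and 423 CPM in muscle, where the mean level of *Csf3* was lowest.

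Downstream of the receptors, none of the 7 inhibitors (*Socs1*, *Socs2*, *Cish*, *Pias1*, *Pias3*, *Ptpn2*, *Ptpn6*) was called in any contrast. Of the 6 genes for receptor shedding and adaptors, *Gab1*, a docking protein, was higher in VAT by 2.60 (log2, adjusted p = 0.0377). Among 18 genes known as STAT3 targets, 2 were higher and 0 lower in VAT than in SAT chow, where 5% of all genes were called, *Cebpb* (2.17, adjusted p = 0.0163) and *Cebpd* (2.10, adjusted p = 0.0187), which encode C/EBP factors of the acute-phase response. The list's median in that contrast was 1.18, beside -0.13 over all genes. In muscle over SAT chow, where 1.27% of all genes were called, 4 were higher, *Lcn2* (6.92, adjusted p = 0.00958), *Hp* (5.18, adjusted p = 0.0183), *Lrg1* (2.52, adjusted p = 0.0287) and *Cebpd* (1.94, adjusted p = 0.0492). *Lcn2*, *Hp* and *Lrg1* are also known as genes of neutrophil granules or the neutrophil lineage, and neutrophil markers were highest in the same libraries. Of the 12 immediate early genes, *Ier3* (2.16, adjusted p = 0.0172) and *Atf3* (2.90, adjusted p = 0.0469) were higher in VAT than in SAT chow, and *Egr2* was lower in muscle than in VAT (-2.25, adjusted p = 0.0491), where 2.02% of all genes were called.

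Within the pairs, 11 of the 46 other pathway genes with enough counts were at least 2-fold higher and 5 lower in SAT chow KO, shares no larger than the 25.8% and 18.8% of all genes. The largest was *Fosl2*, an AP-1 subunit, at 55.7 and 1842 CPM (log2 5.05), and *Sos1*, which links receptors to Ras, was at 2.34. *Pim1* (1.40), *Lifr* (1.42) and *Il11ra1*, the IL-11 receptor (1.44), were higher too. The 5 lower genes were the ligand gene *Ctf1* (-3.10, on 21 and 2 counts), *Lcn2* (-2.49), *Ptpn6* (-1.54), *Hp* (-1.30) and *Lrg1* (-1.25). *Ptpn6* encodes the phosphatase SHP-1 of blood cells. Neutrophil markers stood at 303 and 79.9 CPM in this pair, and their part was not tested. Immediate early genes had 5 of 12 higher and 0 lower, with *Fosb* at 2.97 and *Nr4a1* at 2.67, whereas *Fos* (0.01) and *Jun* (0.11) were level. In muscle 2 of 48 were higher and 4 lower, beside 8.34% and 5.66% of all genes. The lower genes included the STAT3 targets *Bcl3* (-1.24) and *Icam1* (-1.04). Of the STAT3 targets 2 of 17 were above 0 in muscle, beside 8489 of 16967 over all genes. In SAT HFD 5 of 44 were higher, among them *Csf3r* (2.47) and *Lepr* (1.17), and 3 lower, beside 18.0% and 16.3%, and in VAT 3 of 46 were higher and 2 lower, beside 7.48% and 6.48%. Across the 4 pairs edgeR called 0 of the 60 genes tested in these lists, of which 1 (*Lcn2*) had an unadjusted p under 0.05, and DESeq2 called 0.

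**Figure D5:**
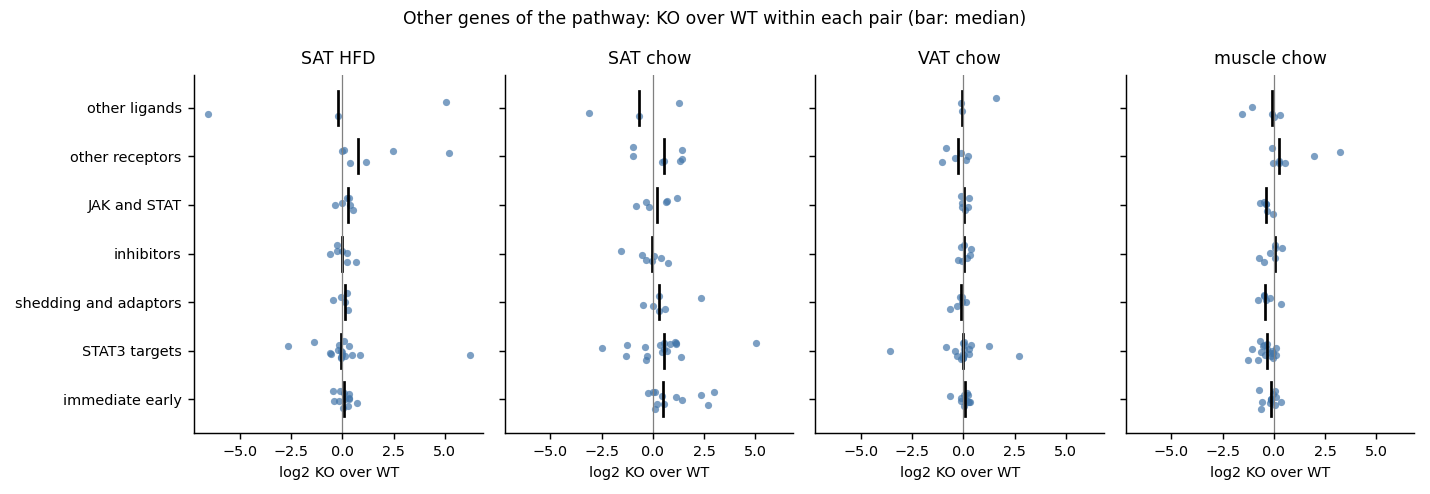
Log2 KO over WT of each other pathway gene that averaged 10 or more counts in the pair (points, prior count 0.5), by list, with the list's median as a bar. STAT3 targets had a median of 0.55 in SAT chow, -0.06 in SAT HFD, 0.00 in VAT and -0.33 in muscle.

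The genes whose log2 CPM followed each family gene most closely over the 8 libraries were taken as the 3 with the highest Pearson r, a description over libraries that share tissue and cell makeup. For *Il6* these were *Impact* (0.986), *Maff* (0.983) and *Prdm1* (0.974). For *Osm* they were *Pygl* (0.995), the liver-type glycogen phosphorylase, *Palm* (0.990) and *Cd300lf* (0.986), a myeloid receptor. *Osmr* was closest to *Timp3* (0.992), *Dst* (0.991) and *Tcf4* (0.990). *Socs3* was closest to *Gpr137b* (0.994), *Zfp703* (0.985) and *Nrros* (0.984), and *Stat3* to *Rnf19b* (0.992) and then to *Ighv1-11* and *Gm10634*, which had 0 counts in at least 1 library. *Lif* was closest to *Arhgap6*, *Pde4c* and *Psd3* (0.977 to 0.973), *Il6ra* to *Ifih1*, *Ncoa7* and *Ctns* (0.990 to 0.985), *Il6st* to *Cic*, *Erbin* and *Tgfbr1* (0.973 to 0.950), and *Csf3* to *Gm45235*, *Has1* and *Gm38329* (0.970 to 0.958). Within the family, *Il6* had an r of 0.876 with *Socs3*, 0.864 with *Lif* and 0.819 with *Osmr*, and 0.09 with *Osm*. *Osm* and *Lif*, although neighbours on the chromosome, had an r of -0.11.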

How the data were processed

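Raw read counts per gene, as deposited by the authors for the 8 libraries in 1 table with gene coordinates and lengths, were used. The submitters' processing notes name HISAT2 2.0.5 and GRCm38 (mm10). The counting program, its use of strand and the annotation are not given in the sources used here. The labels name RNeasy extraction and a SMARTER kit for the sorted cells. All rows had a gene name, and 24905 had no count in any library.

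CPM were scaled by TMM over all genes. edgeR 4.0.16 (R 4.3.3; robust quasi-likelihood test, Benjamini-Hochberg over the 16971 genes that averaged 10 or more counts) was fitted to all 8 libraries with pair and genotype as terms, leaving 3 residual degrees of freedom, with a common dispersion of 0.321. P-values measure only the spread between these libraries. Within a pair, log2 ratios used a prior count of 0.5 with exact Clopper-Pearson 95% counting intervals, and genes under an average of 10 counts in the pair were not counted. Intervals cover counting error only, and reads were not counted by molecular identifier. The steps were tested on simulated data. DESeq2 1.42.0, other scalings, filters and left-out libraries were the alternatives.

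The family's members, the pathway lists (other ligands, other receptors, JAK and STAT, inhibitors, shedding and adaptors, STAT3 targets, immediate early, nuclear RNA) and the marker lists (endothelial, stromal, macrophage, neutrophil, T cell, B cell, satellite cell) were chosen with earlier results of these data known. Named from the pathway lists were genes with an adjusted p under 0.05 and up to 3 each way with the largest difference in a comparison. *Fos*, *Jun* and the 7 inhibitors were also named, after their values were seen. Nearest genes were the 3 with the highest r. Promoters were from RefSeq (GRCm38.p6). The result of 1 gene of the JAK and STAT list is not reported here.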

Additional observations from a re-analysis of the deposited data

Results flagged for a closer look

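For 6 of the 9 tested genes, KO over WT went one way in 1 pair and the opposite way in another, with counting intervals on opposite sides of no change. These intervals cover counting error only and are narrow for genes with many counts. The share of all genes that meet this rule was not counted, so the number is not a result about the family. The log2 difference between the 2 pairs was 6.80 for *Il6* (SAT chow 5.22, muscle -1.58), 1.97 for *Il6st* (SAT chow 1.29, VAT -0.69), 1.67 for *Socs3* (SAT chow 0.88, muscle -0.79), 1.49 for *Stat3* (SAT chow 0.71, muscle -0.78), 1.41 for *Osm* (VAT 0.21, SAT HFD -1.20) and 0.33 for *Il6ra* (SAT HFD 0.15, muscle -0.19). With 1 library per genotype in each pair, none of these differences between pairs was tested. In 4 of the 6 the higher value was that of the SAT chow pair, whose WT library was low in *Malat1* and *Neat1*, and in *Il6st* and *Osm* it involved the VAT library labelled KO. No group had enough libraries to look for a sample far from the others.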

How the results depend on the processing

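The count of family genes called in VAT over SAT chow (1) was 5 with DESeq2, 2 with median-of-ratios scaling, 4 without the count filter, 0 with no replicate block (genotype left out) and 0 to 5 without 1 library or pair (0 without either VAT library, 2 without SAT HFD WT, 5 without SAT chow KO). In muscle over SAT chow (1) it was 1 to 3 without 1 library or pair, the 3 arising without the SAT chow KO library. In muscle over VAT (1) it was 3 with DESeq2, 3 without the filter and 0 to 5 without 1 library or pair (0 without any VAT or muscle library, 5 without SAT chow WT or its pair, 4 without SAT chow KO). For any difference (2) it was 6 with DESeq2, 6 without the filter and 0 to 8 without 1 library or pair (1 without any VAT or muscle library, 0 without the muscle pair, 1 without the VAT pair, 7 without the SAT chow pair). The number called among all genes (29627 without the filter) moved too. In VAT over SAT chow it was 849 in the main fit, 2280 with DESeq2, 887 with median-of-ratios scaling and 2100 without the filter. For any difference it was 1345 in the main fit, 3319 with DESeq2, 3302 without the filter and 3224 without the SAT chow pair. In muscle over VAT it was 343, 1253 with DESeq2 and 1159 without the filter. Leaving out 1 SAT chow library also raised it. The family counts for KO across the 4 pairs and for SAT HFD over SAT chow were 0 under all 10 and 16 alternatives. The counts within pairs stayed within 1 of the main value, *Socs3* in SAT chow being the sixth gene under other scalings, which raised KO over WT there by 0.11 to 0.23 on the log2 scale. Without 1 library or pair, log2 values that were not called turned sign. For KO over WT the ranges were -0.23 to 1.60 (*Il6*), -0.0959 to 0.0206 (*Il6ra*), -0.0794 to 0.602 (*Il6st*), -0.325 to 0.17 (*Stat3*) and -0.12 to 0.43 (*Socs3*). For SAT HFD over SAT chow they were -0.48 to 4.87 (*Il6*), -0.67 to 0.54 (*Il6st*), -0.883 to 0.0126 (*Osm*), -0.49 to 0.82 (*Osmr*), -0.68 to 0.19 (*Stat3*) and -0.23 to 0.61 (*Socs3*). For VAT over SAT chow *Il6st* ran from -0.0591 to 1.27, and for muscle over VAT from -1.06 to 0.27. For muscle over SAT chow the ranges were -0.86 to 4.63 (*Il6*), -0.47 to 0.78 (*Il6st*), -0.34 to 0.70 (*Lif*), -2.11 to 1.78 (*Csf3*), -0.27 to 0.76 (*Stat3*) and -0.37 to 0.92 (*Socs3*). With no replicate block *Osmr* was -0.11 in SAT HFD over SAT chow, and *Il6st* and *Lif* were -0.0436 and -0.0781 in muscle over SAT chow. Upper quartile scaling gave -0.0486 for *Il6st* in muscle over SAT chow and -0.00866 for *Socs3* in the VAT pair, and library totals gave 0.0892 for *Osm* in the muscle pair. The cause of these changes was not tested. Depth limits *Il11*, which had 0 counts in 3 libraries. The 9 and 4 counts of *Il6* and *Csf3* in the SAT chow WT library, the deepest, leave wide counting intervals there.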
